A study of Mus musculus with 4 samples.

Results

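The genes described here build and run the DNA replication machinery, from the licensing of origins to the synthesis of nucleotides at the fork. They are 45 genes chosen by name, and all 45 were found among the 23235 gene symbols of the dataset. The RNA was from HG165, a haploid embryonic stem cell (haESC) line of C57BL/6 mice that carries only a paternal genome and stands for 1 derivation. haESCs tend to become diploid in culture, and the comparison asks how a chemical cocktail chosen to hold them haploid alters their transcripts. Cells received either the solvent DMSO, as the control, or RDF, a mixture of Repsox (an inhibitor of TGF-β signaling), DMH1 (an inhibitor of BMP signaling) and Forskolin (an activator of adenylyl cyclase). There were 2 DMSO and 2 RDF samples, and the general culture was ES medium with serum and LIF. The doses, the length of treatment and any sorting by ploidy of these 4 samples were not given in the sources used here. Transcript levels are FPKM, the number of sequenced fragments scaled to transcript length and to sequencing depth, so they can be compared between genes.

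Replication starts in 2 separated stages. In G1, the origin recognition complex (ORC), Cdc6 and Cdt1 load the Mcm2-7 helicase onto DNA in an inactive form, and geminin (Gmnn) blocks Cdt1 once S phase has begun, so that no origin is licensed again in the same cycle. In S phase, the kinase Cdc7 with its activator Dbf4, together with Mcm10 and the GINS complex, turns the loaded helicase into a moving fork. At the fork, RPA covers the single strands, the clamp Pcna is loaded by replication factor C (RFC), polymerases alpha, delta and epsilon copy the strands, and Fen1 and Lig1 join the Okazaki fragments. Ribonucleotide reductase (Rrm1 and Rrm2), Tyms and Tk1 supply the deoxynucleotides. In embryonic stem cells, which divide quickly, genes of this machinery are strongly expressed.

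Many of these genes are known targets of E2F transcription factors, which drive genes needed for S phase, so their promoters were searched for E2F-type letters. Promoter windows of RefSeq (build GRCm38.p6, 250 bases before to 50 after the transcription start) were at hand for 37 of the 45 genes, with 46 windows in all. The letters TTTCGCGC, TTTGGCGC or TTTCCCGC stood on either strand in 14 of the 46 windows (30.4%), against 1.84% of all 32851 windows and 3.55% of the 10779 windows of genes expressed here. The 14 genes were Orc1, Orc3, Cdc6, Cdt1, Mcm3, Mcm5, Mcm6, Mcm7, Gins3, Rfc3, Pola1, Pold1, Pole2 and Lig1. CCAAT, the letters bound by NF-Y, stood in 52.2% of the windows, against 38.4% for genes expressed here. TTTGAA, found in promoters of late cell cycle genes, stood in 15.2%, against 17.9% of all windows and 11.4% for genes expressed here. The windows of Cdc7 overlap and share the same match to it. The full cAMP response element TGACGTCA, of interest because Forskolin raises cAMP, stood in the windows of Mcm5 and Orc5 only, 4.35% of the windows against 3.16%. Of the 5 windows of called genes, 2 (Orc1 and Cdt1) held E2F-type letters, and of the 41 windows of the other replication genes 12 did. Such matches describe letters and not bound sites, and the motifs may overlap one another.

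The 150 bases before the start are shown for 4 of these genes, 5′ to 3′ on the strand of the gene, with E2F-type matches in capitals. Orc1 and Dbf4 were both higher in RDF, the former with a match and the latter with none. Cdc6 and Mcm6 did not pass the test, and Mcm6 holds 3 matches, of which 2 overlap in the first run of capitals. The stretches are chr4:108579304-108579453 (+ strand) for Orc1, chr11:98908001-98908150 (+ strand) for Cdc6, chr1:128359706-128359855 (− strand) for Mcm6 and chr5:8422717-8422866 (− strand) for Dbf4.
Orc1: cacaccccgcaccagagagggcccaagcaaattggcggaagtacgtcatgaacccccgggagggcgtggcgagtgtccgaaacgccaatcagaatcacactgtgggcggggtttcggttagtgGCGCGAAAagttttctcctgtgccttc
Cdc6: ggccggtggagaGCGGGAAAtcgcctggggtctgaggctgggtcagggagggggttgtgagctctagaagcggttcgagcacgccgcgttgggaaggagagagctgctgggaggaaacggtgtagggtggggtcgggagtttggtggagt
Mcm6: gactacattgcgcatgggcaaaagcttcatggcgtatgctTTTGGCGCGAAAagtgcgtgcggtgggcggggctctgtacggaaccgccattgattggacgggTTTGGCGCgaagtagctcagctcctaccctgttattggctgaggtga
Dbf4: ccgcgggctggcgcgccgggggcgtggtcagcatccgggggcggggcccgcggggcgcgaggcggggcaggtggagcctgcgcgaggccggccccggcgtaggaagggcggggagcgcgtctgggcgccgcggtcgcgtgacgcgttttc

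The replication genes were well expressed. All 45 were above 0 FPKM in each of the 4 samples, and their means over the samples ran from 6.25 FPKM for Gins3 to 355 FPKM for Pcna. Values were compared as log2(FPKM + 1), a scale that slightly understates changes of low genes, over the 11733 genes whose mean over the 4 samples reached 1 FPKM, with limma and Benjamini-Hochberg adjustment. A gene was called when its adjusted p was under 0.05. The sources do not say whether samples of a condition came from separate cultures, so these p-values measure only the spread between the samples, which may be technical. In bulk RNA, fewer cells in a given phase or of a given type cannot be told apart from less RNA per cell.

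Of the 45 replication genes, 5 rose with RDF (11.1%) and 0 fell, while limma called 13.3% of all genes tested up and 8.28% down. At an unadjusted p under 0.05 there were 14 replication genes (31.1%), against 38% of all genes tested. Of these, 11 (24.4%) were higher in RDF and 3 (6.67%) lower, against 22.5% and 15.5% of all genes tested. With median-ratio scaling of the samples the counts became 3 up (Orc1, Dbf4 and Mcm10) and 2 down (Orc4 and Rrm1) of the 45, against 11.4% up and 10.1% down of all genes tested in that setting. With quantile normalization they were 6 up and 1 down, against 10.6% and 9.28%. With any 1 sample left out, fewer replication genes were called, and also fewer of all genes tested. A lone sample in a condition gives no spread of its own, so only differences are given here. The log2 differences of the 5 genes called with all samples then ran from 0.31 to 0.43 for Orc1 and from 0.17 to 0.23 for Rrm2. Both RDF values lay above both DMSO values for 15 genes (33.3%) and below them for 9 (20%), against 37.1% and 28.5% of all genes tested.

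The size of the differences was small. The median log2 difference of the 45 genes, RDF minus DMSO, was 0.02, against 0.03 for all genes tested, and without regard to sign it was 0.078, against 0.164. Over the 7048 genes in the same range of mean FPKM it was 0.150. The median difference between replicates, on the same scale and without regard to sign, was 0.0603 in DMSO and 0.0542 in RDF for the replication genes. These compare single samples, which vary more than the means of 2 samples behind the 0.078, so the measures are unlike. For all genes tested the difference between replicates was larger too, at 0.0889 in DMSO and 0.0865 in RDF. For 33 of the 40 genes not called, the 95% interval of the difference lay within 1.25-fold in either direction, and all 45 intervals lay within 1.5-fold.

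**Figure D1:**
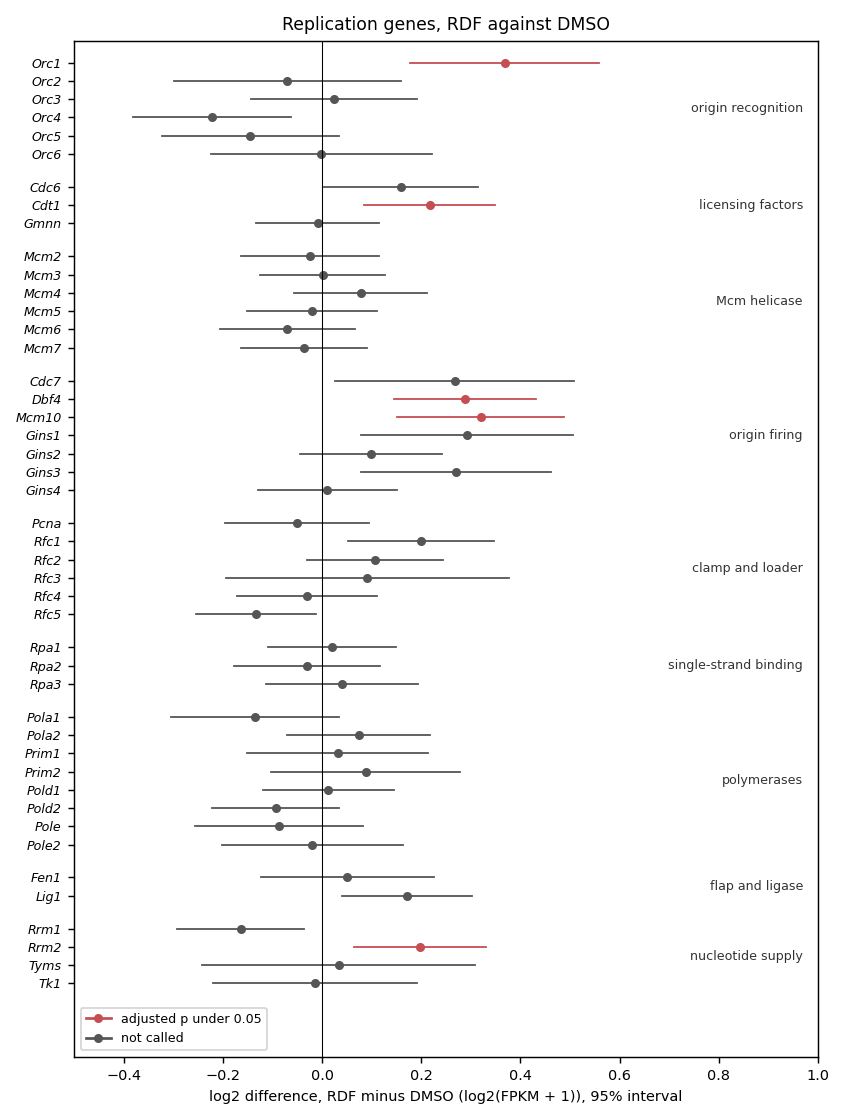
Log2 difference (RDF minus DMSO, on the log2(FPKM + 1) scale) of each of the 45 replication genes, grouped by role; points are estimates and lines are 95% intervals from limma, with the 5 called genes in red. All 7 origin firing genes lie right of 0 (Gins4 was at -0.02 with median-ratio scaling), and the Mcm2-7 genes lie between -0.07 and 0.08. Of all 11733 genes tested, 6382 had a positive difference.

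Within ORC, the complex that marks origins, Orc1 was the only subunit of 6 that passed the test. Orc1, the largest subunit and one of its ATPases, was at 9.85 and 8.99 FPKM in DMSO and at 12.1 and 12.8 FPKM in RDF. The RDF samples were both higher, and the log2 difference was 0.37 (SE 0.078, limma adjusted p = 0.0234). Orc1 lies at chr4:108252028-108288633 in the build mm9. Orc4 went the other way, at 16.3 and 16.9 FPKM in DMSO and 13.8 and 14.3 FPKM in RDF, but missed the threshold (log2 difference -0.22, adjusted p = 0.0600). Orc5 also had both RDF values below both DMSO values, with a log2 difference of -0.14 (adjusted p = 0.205), while Orc2, Orc3 and Orc6 overlapped between conditions. Orc1 was the lowest subunit in every sample, and the highest subunit exceeded it 4.52-fold and 4.84-fold in DMSO and 3.38-fold and 3.12-fold in RDF.

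Of the loading factors Cdt1 and Cdc6 and the inhibitor Gmnn, only Cdt1 passed the test. Cdt1, which brings Mcm2-7 to ORC, was at 186 and 180 FPKM in DMSO and at 209 and 216 FPKM in RDF, and rose by a log2 difference of 0.22 (SE 0.054, limma adjusted p = 0.0372). It lies at chr8:125091915-125097028 in mm9. Cdc6, the ATPase that acts with ORC in loading, was at 16.05 and 15.96 FPKM in DMSO and at 17.5 and 18.5 FPKM in RDF. Its 2 RDF values were both higher, yet the difference missed the threshold at 0.16 on the log2 scale (95% interval 0.0028 to 0.31, adjusted p = 0.127). Gmnn, the inhibitor of Cdt1, was at 111 and 108 FPKM in DMSO and at 109 and 110 FPKM in RDF. Its conditions overlapped, and the log2 difference was -0.01 (95% interval -0.13 to 0.12). The ratio of Gmnn to Cdt1 transcripts, which a single scaling factor per sample does not affect, was 0.599 and 0.602 in DMSO and 0.520 and 0.506 in RDF.

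**Figure D2:**
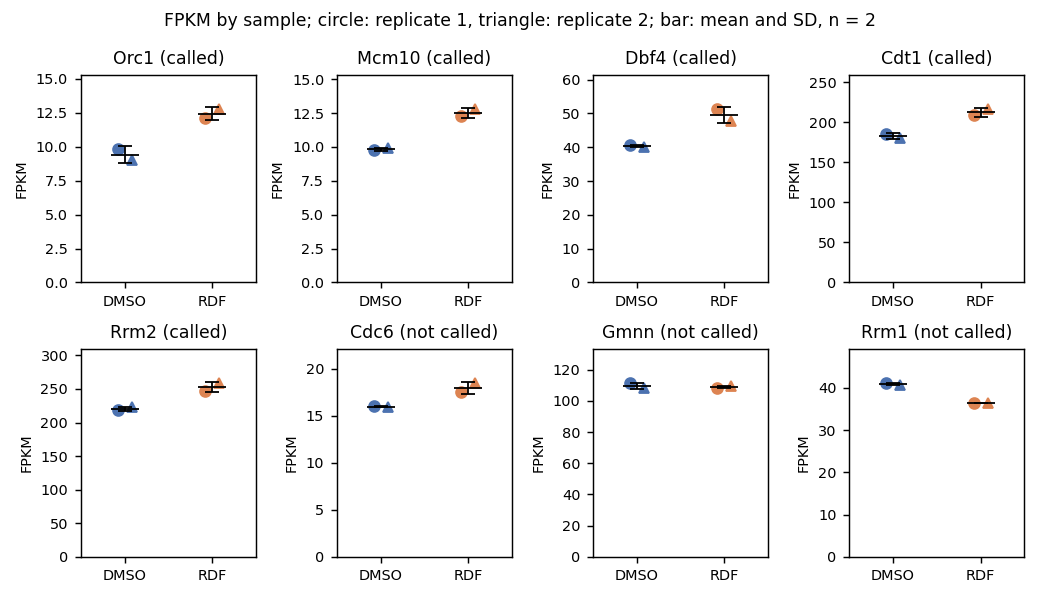
FPKM in each sample (circles replicate 1, triangles replicate 2) for the 5 called genes and for Cdc6, Gmnn and Rrm1, with the mean and SD of the 2 samples of a condition. The RDF values of the called genes lie above both DMSO values, those of Rrm1 lie below them, and those of Gmnn overlap with them.

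The 6 genes of the Mcm2-7 helicase, the motor of the fork, gave no call by limma in either direction. Over all genes tested, 13.3% were called up and 8.28% down. None of the 6 had an unadjusted p under 0.05, against 38% of all genes tested. Mcm2 was at 169 and 159 FPKM in DMSO and at 159 and 164 FPKM in RDF. Mcm3 was at 163 and 158 FPKM in DMSO and at 161 and 160 FPKM in RDF. For both, the RDF values fell among the DMSO values or overlapped with them. Mcm4, the lowest of the 6 in every sample, was at 103 and 107 FPKM in DMSO and at 113 and 109 FPKM in RDF. Mcm5 was at 152 and 146 FPKM in DMSO and at 145 and 149 FPKM in RDF. Only Mcm4 had both RDF values above both DMSO values, by a log2 difference of 0.08 (adjusted p = 0.341). Mcm6 was at 172 and 162 FPKM in DMSO and at 159 and 160 FPKM in RDF. Mcm7 was at 177 and 174 FPKM in DMSO and at 169 and 173 FPKM in RDF. The last pair had both RDF values below both DMSO values, by -0.07 for Mcm6 (adjusted p = 0.395) and -0.04 for Mcm7 (adjusted p = 0.646). The 95% intervals of the 6 genes ran from -0.21 at the lowest (Mcm6) to 0.21 at the highest (Mcm4). The side of 0 on which these small differences lay depended on scaling, with 2 of 6 positive as deposited, 1 with median-ratio scaling and 5 with quantile normalization. The subunits of this hexamer, which holds each in equal number, also had similar levels, and the highest exceeded the lowest 1.49-fold to 1.73-fold in the 4 samples.

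The 7 genes that fire licensed origins among the 45 lay on the RDF side. That was not so for 10 further genes, grouped as origin genes and described with the wider list. All 7 had a positive log2 difference (median 0.27), also with quantile normalization (median 0.21) and, except Gins4 at -0.02, with median-ratio scaling (median 0.24). Of all 11733 genes tested, 6382 had a positive difference as deposited. Of the 7, 6 had both RDF values above both DMSO values (37.1% of all genes tested did), and 2 rose, Dbf4 and Mcm10 (13.3% of all genes tested did). Dbf4, the activating subunit of the Cdc7 kinase, was at 40.5 and 40.2 FPKM in DMSO and at 51.3 and 47.8 FPKM in RDF (log2 difference 0.29, SE 0.059, limma adjusted p = 0.0212). Mcm10, which helps to start and stabilize the fork, was at 9.76 and 9.91 FPKM in DMSO and at 12.3 and 12.8 FPKM in RDF (0.32, SE 0.069, limma adjusted p = 0.0249). In mm9, Dbf4 lies at chr5:8396973-8422716 and Mcm10 at chr2:4910760-4933837.

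Of the remaining firing genes, 3 had log2 differences near those of Dbf4 and Mcm10 but did not pass the test. Cdc7, the kinase itself, was at 7.14 and 7.89 FPKM in DMSO and at 9.98 and 8.54 FPKM in RDF (0.27, adjusted p = 0.106). The GINS subunit Gins3 was at 5.48 and 5.66 FPKM in DMSO and at 6.90 and 6.94 FPKM in RDF (0.27, adjusted p = 0.0573), and Gins1 at 26.2 and 26.6 against 29.9 and 35.5 FPKM (0.29, adjusted p = 0.0626). These low genes rest on few fragments, with an estimated lowest value per sample of 123 for Gins3 and 245 for Cdc7. Gins2 differed by 0.10 and Gins4 by 0.01, neither of them called. The ratio of Dbf4 to Cdc7 transcripts was 5.68 and 5.10 in DMSO and 5.13 and 5.60 in RDF, which overlap. GINS had the widest spread of subunit transcripts, with Gins2 at 21.5 to 25.9 times the level of Gins3, although the protein complex holds 1 of each.

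**Figure D3:**
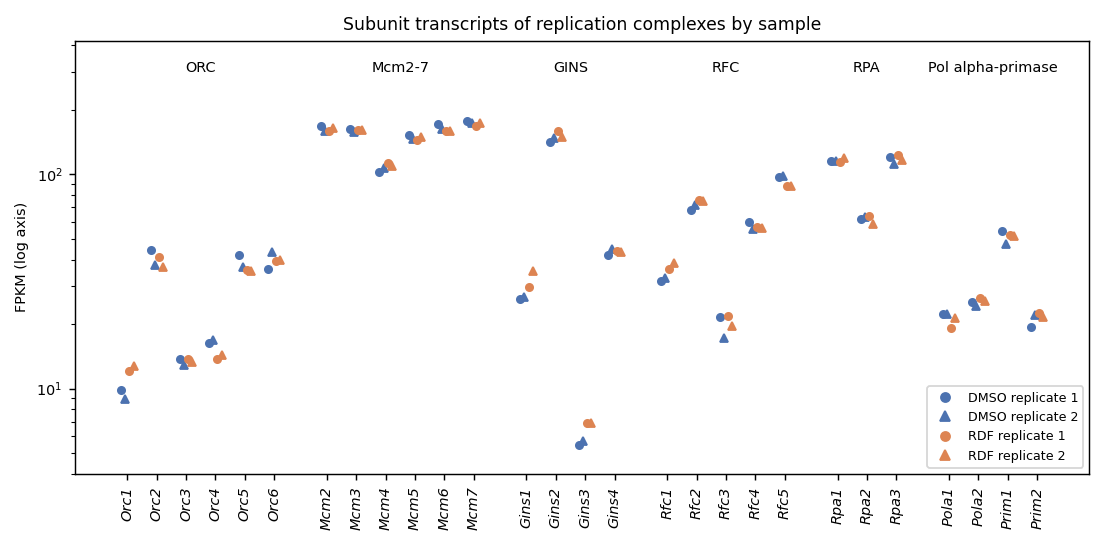
FPKM (log axis) of the subunits of 6 replication complexes in the 4 samples (blue DMSO, orange RDF). The Mcm2-7 transcripts lie within 1.73-fold of one another in every sample, while those of GINS span 21.5-fold or more; Orc1 and Gins3 are the lowest of their complexes.

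No gene of the clamp, its loader, RPA, the polymerases or the joining of Okazaki fragments was called by limma. Rfc1, Rfc5 and Lig1, 3 in all, had an unadjusted p under 0.05. Over all genes tested, 13.3% were called up and 8.28% down, and 38% had an unadjusted p under 0.05. Pcna, the sliding clamp and the most abundant transcript of the 45, was at 369 and 353 FPKM in DMSO and at 358 and 340 FPKM in RDF, which overlap (log2 difference -0.05, adjusted p = 0.573). Of the clamp loader, Rfc1, the large subunit, was higher in both RDF samples by 0.20 (adjusted p = 0.0645) and Rfc5 lower in both by -0.13 (adjusted p = 0.107). Rfc2 differed by 0.11, and Rfc3 and Rfc4 overlapped between conditions. The 3 RPA genes, for the protein that coats single strands, had differences between -0.03 and 0.04, and all 3 overlapped between conditions.

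The 8 genes of the replicative polymerases and primase had differences between -0.14 (Pola1, the catalytic subunit of polymerase alpha) and 0.09 (Prim2, the large primase subunit), with adjusted p of 0.207 or more. Pola1, Pold2 and Pole had both RDF values below both DMSO values, and Pola2 had them above. The primase gene Prim1 was the highest of the polymerase alpha-primase genes in every sample, at 47.3 to 54.1 FPKM. Lig1, the ligase that seals Okazaki fragments, was at 94.6 and 94.3 FPKM in DMSO and at 109 and 104 FPKM in RDF, a log2 difference of 0.17 that missed the threshold (adjusted p = 0.0712). Fen1, the flap nuclease that acts before it, overlapped between conditions (0.05).

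The 2 subunits of ribonucleotide reductase, the enzyme that makes deoxynucleotides, lay on opposite sides. Rrm2, the small subunit, which is made mainly in S phase, was at 218 and 222 FPKM in DMSO and at 248 and 258 FPKM in RDF (log2 difference 0.20, SE 0.055, limma adjusted p = 0.0494). It lies at chr12:25393106-25399011 in mm9, and its adjusted p was close to the threshold. Rrm1, the large catalytic subunit, was at 41.1 and 40.8 FPKM in DMSO and at 36.4 and 36.4 FPKM in RDF, and missed the threshold (-0.16, adjusted p = 0.0736). The ratio of Rrm2 to Rrm1 transcripts was 5.31 and 5.46 in DMSO and 6.80 and 7.10 in RDF. Tyms (0.03), which makes thymidylate, and Tk1 (-0.01), which salvages thymidine, overlapped between conditions.

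**Figure D4:**
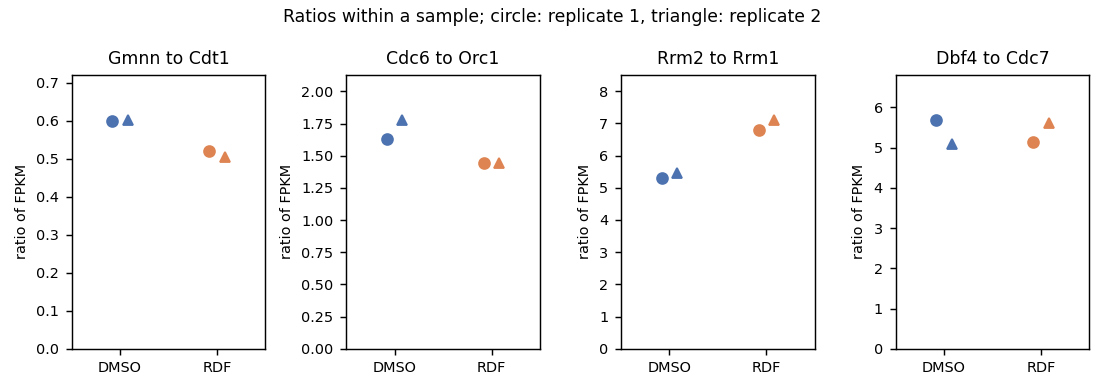
Ratio of FPKM of paired replication genes within each sample (circles replicate 1, triangles replicate 2). The RDF ratios lie below the DMSO ratios for Gmnn to Cdt1 (0.506 and 0.520 against 0.599 and 0.602) and Cdc6 to Orc1, above them for Rrm2 to Rrm1, and overlap for Dbf4 to Cdc7.

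These ratios were taken as a description with no test, because with 2 samples in each condition the smallest two-sided p of an exact permutation test is 0.333. The ratio of Cdc6 to Orc1 was 1.63 and 1.78 in DMSO and 1.45 and 1.45 in RDF.

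A further list of replication genes outside the 45 was written from general knowledge of the process, and 61 of its 62 genes were found and tested. Of these, 6 rose (9.84%) and 3 fell (4.92%), against the same 13.3% and 8.28% of all genes tested, and the median log2 difference was -0.01. The 5 largest rises were those of Atad5, Rif1, Rnaseh1, Msh6 and Ung. Atad5, which unloads Pcna from DNA, was at 2.56 and 2.52 FPKM in DMSO and at 3.89 and 4.21 FPKM in RDF (log2 difference 0.51, adjusted p = 0.0154). Rif1, which sets the timing of replication and restrains origin firing by opposing the Dbf4-dependent kinase, was at 13.5 and 13.3 FPKM in DMSO and at 18.8 and 20.1 FPKM in RDF (0.50, adjusted p = 0.00603). Rnaseh1, which removes RNA from hybrids with DNA, rose by 0.42 (adjusted p = 0.0191). The mismatch repair gene Msh6 rose by 0.29 (adjusted p = 0.0139) and the uracil glycosylase gene Ung by 0.29 (adjusted p = 0.0467). The sixth was Topbp1, which acts with the kinases in firing (0.27, adjusted p = 0.0268). Fewer genes of the list were called up with any 1 sample left out, and also fewer of all genes tested.

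Rif1 and Topbp1 belong to a set of 10 genes that were grouped as origin genes when this list was written. The other 8 were not called, namely Cdc45, Mtbp, Recql4, Donson, Mcm8, Mcm9, Mcmbp and Lrwd1. The place of each in origin firing was not tested. Of the 10, 3 had a positive and 7 a negative difference, with a median of -0.05 on the log2 scale. This split was the same with median-ratio scaling and quantile normalization. Of all 11733 genes tested, 6382 were positive and 5351 negative as deposited. Recql4, a helicase needed for firing, was at 5.22 and 4.82 FPKM in DMSO and at 4.28 and 3.39 FPKM in RDF (-0.32, adjusted p = 0.1001). Cdc45, which joins Mcm2-7 and GINS in the active helicase, overlapped between conditions (-0.08, adjusted p = 0.513), as did Donson (-0.10, adjusted p = 0.579).

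All 3 genes of that list that fell belong to the making of nucleotides from simple precursors. In the whole list of 61 genes, of any role, 5 were down with median-ratio scaling and 5 with quantile normalization. With a correction for transcript length and GC content, 8 were. The shares of all genes called down in these 3 fits were 10.1%, 9.28% and 12.6%, in that order. With either RDF replicate left out, calls of falls were lost in the list, as they were over all genes tested. Gart, an enzyme of purine synthesis, was at 190 and 191 FPKM in DMSO and at 142 and 150.1 FPKM in RDF (log2 difference -0.38, adjusted p = 0.00789). Cad, which starts pyrimidine synthesis, was at 58.5 and 56.5 FPKM in DMSO and at 45.7 and 47.2 FPKM in RDF (-0.30, adjusted p = 0.0146). Impdh2, which commits purines to guanine nucleotides, was at 454 and 441 FPKM in DMSO and at 374 and 378 FPKM in RDF (-0.25, adjusted p = 0.0264). Over all 18 nucleotide supply genes of the list, 14 had a negative difference (15 with median-ratio scaling, 13 with quantile normalization). Of all 11733 genes tested, 5351 had one as deposited. Of the 18, 9 had both RDF values below both DMSO values (50% against 28.5% of all genes tested). The 9 genes that handle chromatin at forks gave 0 calls, with 4 at an unadjusted p under 0.05, a share close to the 38% of all genes tested.

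The cells expressed the defining genes of embryonic stem cells, among them Pou5f1 at 939 to 1285 FPKM. The summed level of 8 such markers was 7748 to 7808 FPKM in DMSO and 4547 to 5017 FPKM in RDF, with 2 of the 8 up and 4 down. Most of that sum was Dppa5a, with a mean of 5516 FPKM in DMSO and 3035 FPKM in RDF. Zfp42 (25.9 against 47.6 FPKM) and Sox2 (96.6 against 115.8 FPKM) rose, while Pou5f1, Utf1 and Tdgf1 fell with Dppa5a. Feeder cells are named in the general culture protocol, though most experiments of the study left them out. The summed level of 8 fibroblast markers was 28.6 to 30.6 FPKM in DMSO and 21.5 to 23.0 FPKM in RDF, with 1 up (Dcn), 3 down (Col1a1, Col1a2 and Postn) and 2 too low to test. None of these 16 markers was at 0 in all samples. The summed level of 16 G2/M genes was 1384 to 1396 FPKM in DMSO and 1412 to 1418 FPKM in RDF. Of the 16, 5 rose (Cdk1, Cenpe, Cenpf, Kif11 and Mki67) and 0 fell, against 13.3% and 8.28% of all genes tested. Among those not called, Aurka, Aurkb and Ube2c had both RDF values above both DMSO values. Cdc20 (log2 difference -0.29, limma adjusted p = 0.0600) and Kif20a (-0.11, 0.173) had both below. The part of these cell type and phase markers in the differences of the replication genes was not tested.

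The difference between RDF and DMSO moved with transcript length over all genes tested, a further fact to set beside the replication genes. With the genes split by length into 4 classes of about equal size, the median, from the shortest to the longest class, of the log2 difference was -0.05, -0.01, 0.04 and 0.13, and the share called up was 7.62%, 10.1%, 14.7% and 21.6%. The replication genes had medians of -0.01, 0.08, 0.01 and 0.02 in the same 4 classes. Orc1 and Mcm10 have longer transcripts (class 3 and class 4) than Cdt1, Dbf4 and Rrm2 (class 2). After a correction for length and GC content, 5 replication genes rose (Orc1, Cdt1, Dbf4, Rrm2 and Gins3) and 4 fell of the 45, against 12.4% up and 12.6% down of all genes so corrected. Mcm10 then missed the threshold (adjusted p = 0.0509). Those that fell were Orc4 (log2 difference -0.32, adjusted p = 0.0199), Pola1 (-0.27, 0.0247), Pole (-0.24, 0.0444) and Rrm1 (-0.24, 0.0171). The part of length in the uncorrected differences was not otherwise tested.

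**Figure D5:**
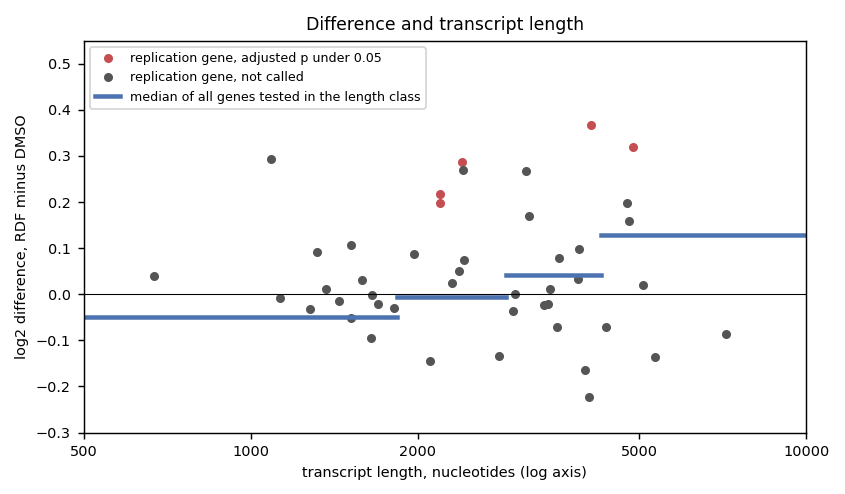
Log2 difference (RDF minus DMSO, log2(FPKM + 1)) of the replication genes against the length of their longest protein-coding transcript (nucleotides, log axis), with the median of all genes tested in each of 4 length classes as blue lines. The blue medians climb from -0.05 to 0.13, and the replication genes of the longest class have a median of 0.02.

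Of the 45 genes, 13 share exon sequence with another annotated gene, 12 of them with a gene on the opposite strand. Among the called genes this concerned Orc1, whose partner Gm12743 was not among the symbols of the dataset. The partners with the highest mean levels were Eif4a2 (376 FPKM, with Rfc4), 1810006K21Rik (329 FPKM, with Fen1) and Cops6 (192 FPKM, with Mcm7), all on the opposite strand. Whether the authors' counting used strand is not given in the sources used here, so reads of such pairs may be mixed. Pcna and Tyms have processed pseudogenes that could take or give reads. By an estimate from the low values of single-transcript genes, the samples held between 9320000 and 12480000 fragments each. With the longest annotated transcript taken as the length of each gene, the lowest estimate for a replication gene in a sample was 123 fragments. Both estimates are rough, and the length may be too large for some genes.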

How the data were processed

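Total RNA of 4 samples of HG165 haESCs (2 DMSO, 2 RDF) was made into stranded mRNA libraries and sequenced on an Illumina instrument by the authors. The authors mapped reads with TopHat2 2.0.14 and Bowtie2 2.1.0 and estimated expression with Cufflinks 2.2.1 against UCSC genes of mm9, with versions per the submitters' processing notes. What they deposited is FPKM per gene symbol. FPKM are scaled to depth and transcript length and hold no counts. Depth was estimated from single-transcript genes of at least 1500 nucleotides, where FPKM step by whole fragments; only 41.4% to 44.7% of these values lay within 0.1 of a whole fragment, so no count test was run.

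Samples were grouped by their titles. Values were tested as log2(FPKM + 1) over the 11733 genes whose mean reached 1 FPKM, using limma 3.58.1 in R 4.3.3 (lmFit, eBayes with trend), with Benjamini-Hochberg adjustment at 0.05 and unadjusted 95% intervals. The fit was tested on simulated data. Positions are of NCBIM37 (mm9), and promoters are from RefSeq (GRCm38.p6); 8 genes had no window. Length classes and the length and GC correction used the longest protein-coding transcript of a gene, which was at hand for 96.5% of the genes tested. The 45 genes and all lists were chosen with earlier results of these data known. Named genes were the called ones, Cdc6, Cdt1, Gmnn, Orc1, Mcm2 to Mcm7, Pcna, Rrm1 and Rrm2, and of the further list the 5 largest called rises and falls; other replication genes are given mainly by difference, and those named with values in every sample (Orc4, Cdc7, Gins1, Gins3 and Lig1), and Topbp1, Recql4, Cdc45 and Donson of the further list, were chosen after their values were seen. Alternatives were another pseudocount (0.1), no filter, median-ratio and quantile scaling, no trend, a replicate block, each sample left out, and, chosen after seeing the data, a loess correction for transcript length and GC content.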

Additional observations from a re-analysis of the deposited data

How the results depend on the processing

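The count of 5 replication genes called up stayed at 5 with a pseudocount of 0.1 or the length and GC correction, and was 6 with quantile normalization (Lig1 added), 3 with median-ratio scaling, 3 without the mean-variance trend (Orc1, Mcm10 and Gins3) and 1 without the filter (Dbf4). With a sample left out, and its lone partner assumed to vary like the other condition, it was 0 to 2. The count called down was 0 except with median-ratio scaling (2), quantile normalization (1, Orc4), and the length and GC correction (4). The median log2 difference of the replication genes was -0.0140 with median-ratio scaling and -0.0097 to 0.0256 with a sample left out. Of the further list, 0 to 5 genes were up and 0 to 4 down with a sample left out, and 5 were down with median-ratio scaling, 5 with quantile normalization, 2 without the filter, 2 without the trend and 8 with the length and GC correction. Over all genes, 942 were up and 606 down without the filter, and 282 to 1162 up and 216 to 761 down with a sample left out. The cause of these moves was not tested, beyond the fewer samples or added low genes that a setting brings by construction.

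With the replicate number as a block, 7 replication genes were up (Gins1, adjusted p = 0.0396, and Rfc1, adjusted p = 0.0499, added) and 0 down, with 1651 genes up and 1066 down over all. The number is only shared, since nothing says it marks a common culture, and deviations of same-numbered samples had an r of 0.134 over all genes tested and 0.262 over the replication genes, from 2 pairs.

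Of the called genes, Orc1 missed the threshold without the filter (adjusted p = 0.0547), Mcm10 without the filter (0.0506) and with the length and GC correction (0.0509), Dbf4 without the trend (0.05004), Cdt1 without the filter (0.0613), with median-ratio scaling (0.0585) and without the trend (0.0844), and Rrm2 in the same 3 settings (0.0754, 0.0781 and 0.103). The sign of genes near 0 turned, on the log2 scale, for Orc3 -0.0079, Mcm3 -0.0330, Gins4 -0.0225, Rpa1 -0.0140, Prim1 -0.0023 and Pold1 -0.0213 with median-ratio scaling, for Orc3 -0.0296, Gmnn 0.0185, Mcm2 0.0207, Mcm5 0.0253, Mcm7 0.0047, Pcna 0.0032 and Tyms -0.0114 with quantile normalization, and for Orc6 0.0014, Gmnn 0.0288, Mcm3 -0.0210, Rpa1 -0.0884, Rpa2 0.0013, Pold1 -0.0603, Tyms -0.0391 and Tk1 0.0519 with the length and GC correction. With a sample left out, the ranges that crossed 0 were Orc2 -0.19 to 0.0466, Orc3 -0.0134 to 0.0606, Orc6 -0.13 to 0.13, Gmnn -0.0283 to 0.0103, Mcm2 -0.0650 to 0.0163, Mcm3 -0.0243 to 0.0256, Mcm5 -0.0506 to 0.0097, Gins4 -0.0330 to 0.0542, Rfc3 -0.0703 to 0.25, Rfc4 -0.0799 to 0.0171, Rpa1 -0.0132 to 0.0523, Rpa2 -0.0849 to 0.0248, Rpa3 -0.0169 to 0.0970, Prim1 -0.0646 to 0.13, Prim2 -0.00073 to 0.18, Pold1 -0.0152 to 0.0391, Pole2 -0.0887 to 0.0480, Fen1 -0.0170 to 0.12, Tyms -0.12 to 0.18 and Tk1 -0.11 to 0.0778. The 5 called genes are not among these. Median-ratio scaling and quantile normalization moved the median of all genes from 0.03 to -0.0042 and -0.0022. For Gins3, the lowest of the 45 genes, an estimated 123 fragments stood behind the value of 1 sample.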
